A study of Schizosaccharomyces pombe with 8 samples.

Results

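The features described here lie at the centromeres of the 3 chromosomes of Schizosaccharomyces pombe and in the 50 kb on each side of them. A feature was taken when it was a protein-coding gene, an ncRNA gene, a XUT or an nc-TU and overlapped 1 of 3 stretches, chrI:3703687-3839421, chrII:1552264-1694747 and chrIII:1020904-1187003. XUTs are unstable non-coding transcripts that accumulate when the cytoplasmic exonuclease Exo2, the counterpart of budding yeast Xrn1, is missing. The nc-TUs are non-coding units named novelncTU and a number in the files, which do not define them further. In all, 263 features met the rule, of 8776 features of these 4 types and 9111 features kept in the series. They were 134 genes, 71 ncRNA genes, 44 XUTs and 14 nc-TUs. Centromere I had 91 of them, centromere II 96 and centromere III 76. Only 28 overlapped a centromere itself, 9 at centromere I, 15 at II and 4 at III, and all 28 were ncRNA genes. The other 235 were flank members.

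The study measured nascent RNA by NET-seq, in which RNA held by elongating RNA polymerase II (Pol II) is isolated through a flag tag on the subunit Rpb3, together with matched input RNA. Cells of the Rpb3-flag strain were grown with 20 µg/ml of the histone deacetylase inhibitor trichostatin A (TSA) for 2.5 h, and untreated cells of the same tagged strain were the comparison. Each condition had 2 biological replicates, so that 4 nascent (IP) and 4 input libraries were read in 50 nt single-end reads. Every lysate, of TSA and of untreated cells alike, received lysate of Rpb3-flag Saccharomyces cerevisiae at 50 parts to 1 as a spike-in. No other genotype is given in the labels.

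Fission yeast centromeres consist of a central core, which carries the centromeric histone variant, and surrounding inverted repeats that are packed into heterochromatin. The repeats are transcribed by Pol II, and the RNA interference machinery turns these transcripts into small RNAs that guide methylation of histone H3. Histone deacetylases, among them Clr3, remove acetyl groups from this chromatin and keep transcription low. At the edges, tRNA genes and the inverted IRC repeats act as boundaries that hold heterochromatin back from the neighbouring genes.

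Only reads with a single place in the genome were kept in the deposited tables, and much centromeric sequence occurs in more than one copy. The following stretches, from RefSeq's ASM294v3 assembly, show the kinds of sequence involved. In the first 4, capitals mark bases covered by at least one 50-base window that occurs once in the genome with 1 mismatch allowed, and lower case marks bases without such a window. They come from SPNCRNA.232 (chrI:3763429-3763605), SPNCRNA.234 (chrI:3786746-3786903), SPNCRNA.359 (chrII:1603237-1603476) and SPNCRNA.370 (chrII:1625750-1625899), all on the plus strand. In the last pair, capitals mark bases that are identical in IRC1-L (chrI:3753543-3753692, minus strand) and IRC1-R (chrI:3789416-3789565, plus strand), the borderline transcripts at the left and right edge of centromere I.
SPNCRNA.232: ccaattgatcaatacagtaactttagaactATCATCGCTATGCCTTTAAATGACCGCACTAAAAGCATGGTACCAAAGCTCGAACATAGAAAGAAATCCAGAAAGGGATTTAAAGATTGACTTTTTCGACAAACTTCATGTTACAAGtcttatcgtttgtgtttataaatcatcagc
SPNCRNA.234: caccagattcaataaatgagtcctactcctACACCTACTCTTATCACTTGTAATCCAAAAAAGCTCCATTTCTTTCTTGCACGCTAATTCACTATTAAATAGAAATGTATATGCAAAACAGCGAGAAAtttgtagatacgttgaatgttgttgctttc
SPNCRNA.359: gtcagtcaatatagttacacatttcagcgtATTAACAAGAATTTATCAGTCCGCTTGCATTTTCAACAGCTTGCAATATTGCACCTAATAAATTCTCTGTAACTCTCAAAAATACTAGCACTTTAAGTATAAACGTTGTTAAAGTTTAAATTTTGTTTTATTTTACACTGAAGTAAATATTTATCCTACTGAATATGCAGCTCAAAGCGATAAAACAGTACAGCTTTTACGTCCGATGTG
SPNCRNA.370: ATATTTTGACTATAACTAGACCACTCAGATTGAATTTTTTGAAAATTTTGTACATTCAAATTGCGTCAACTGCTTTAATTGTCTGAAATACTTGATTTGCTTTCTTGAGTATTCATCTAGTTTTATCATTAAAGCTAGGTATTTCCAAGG
IRC1-L: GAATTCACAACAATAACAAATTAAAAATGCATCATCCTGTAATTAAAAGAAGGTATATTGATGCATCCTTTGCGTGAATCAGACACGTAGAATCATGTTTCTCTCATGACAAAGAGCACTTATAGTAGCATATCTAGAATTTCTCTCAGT
IRC1-R: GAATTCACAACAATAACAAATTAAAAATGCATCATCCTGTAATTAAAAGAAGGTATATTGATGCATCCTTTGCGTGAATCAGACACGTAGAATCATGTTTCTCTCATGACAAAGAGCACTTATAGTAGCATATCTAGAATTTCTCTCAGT

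All 150 bases shown were the same in both IRC1 transcripts, so that a read from this stretch has a pair of equal places in the genome. IRC1-L and IRC1-R count as centromeric members because they overlap an edge. Most of each stretch shown lies outside centromere I (chrI:3753687-3789421). Copies were also the rule inside the centromeres. Of the 25-base words of IRC1-L, 100% also occurred in IRC1-R, and 100% of those of SPNCRNA.482 at centromere III occurred inverted in SPNCRNA.485. SPNCRNA.230 of centromere I shared 91.4% of its words with SPNCRNA.361 of centromere II. With 1 mismatch allowed, 3.91% of the windows of centromere I, 19.6% of those of centromere II and 3.02% of those of centromere III occurred once. In the 50 kb flanks the share lay between 92.5% and 97.7%, and 227 of the 235 flank members had unique windows throughout.

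Over the kept features the nascent libraries held 7218671 to 10436194 reads and the inputs 8104143 to 12591213. The 263 members took 78171 to 138566 reads of a nascent library and 29323 to 44031 of an input library. The 28 centromeric members took only 48 and 59 reads of the TSA nascent libraries and 34 and 62 of the untreated ones. In the inputs they took 59 and 38 reads in TSA cells and 34 and 22 in untreated cells. The depth inside the centromeres was thus far below that beside them.

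Of the 28 centromeric ncRNA genes, 20 had 0 reads in all 8 libraries, which allows up to 3 reads per library by counting error alone. All 20 lacked a unique window at 1 mismatch. The 7 members with such a window all had reads, and the only other one with reads was SPNCRNA.373, which had unique windows only when no mismatch was allowed. The boundary transcripts IRC1-L and IRC1-R and all 4 members of centromere III (SPNCRNA.482 to SPNCRNA.485) were among the unread. For these no level and no response to TSA can be given from the deposited tables.

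**Figure D1:**
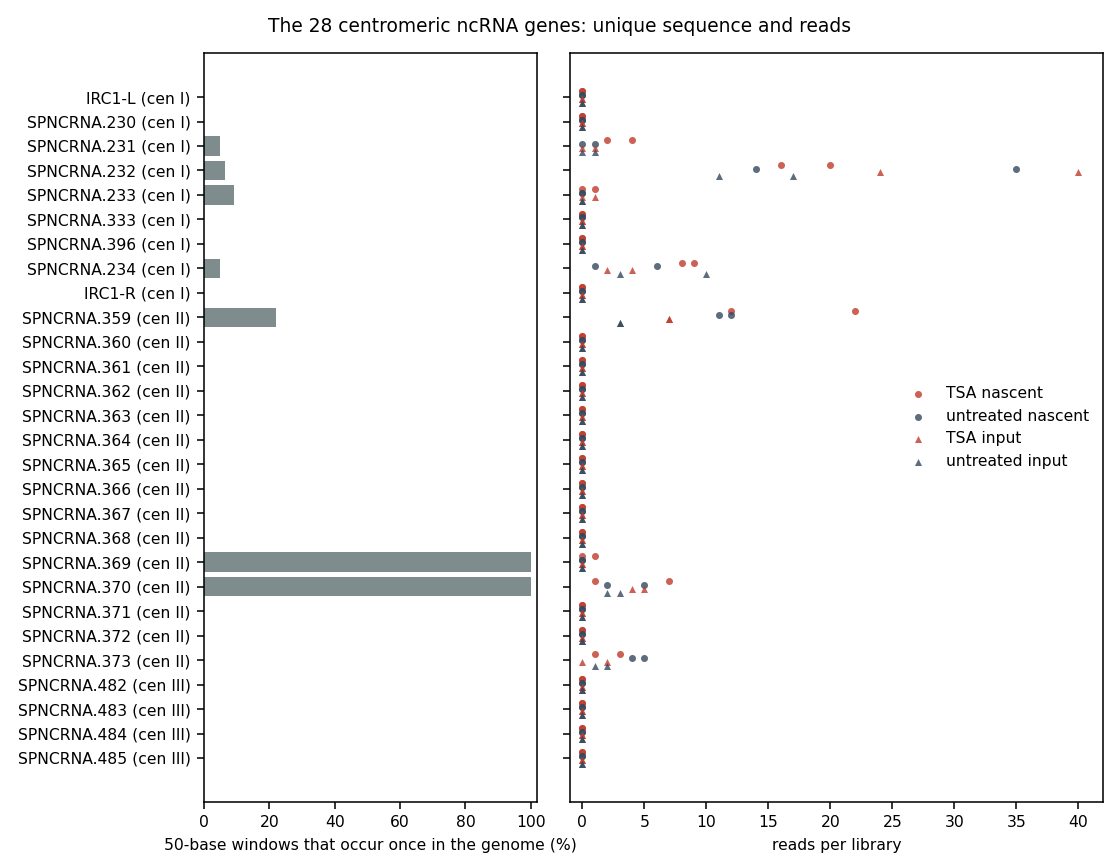
The left panel shows, for each of the 28 ncRNA genes that overlap a centromere, the percentage of 50-base windows that occur once in the genome with 1 mismatch allowed. The right panel shows the reads of each of the 8 libraries, with circles for nascent and triangles for input RNA, red for TSA and dark for untreated cells. Reads appear in 8 members, and SPNCRNA.232 reaches 40 in an input library.

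SPNCRNA.232, a centromeric lncRNA of centromere I with 6.44% of its windows unique, held the most reads of the 28. It had 16 and 20 nascent reads in TSA cells, against 14 and 35 in untreated cells. On the spike-in scale these were 8.83 and 16.2 normalised reads in TSA cells, against 14 and 19.1 in untreated cells, and the groups overlapped. The log2 change, always given as TSA minus untreated, was -0.31 ± 0.35 (SE, n = 2 each, adjusted p = 0.537 in the limma fit across all features). Its input did not overlap between the groups, with 23.6 and 20.7 normalised reads in TSA cells, against 12.3 and 10.03 in untreated cells. That input change of 0.92 ± 0.29 had an adjusted p of 0.0478 in limma but fell short of the 2-fold size set for a call. Among all features tested in the input, 28.7% had both TSA values above both untreated ones.

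SPNCRNA.359, at the left end of centromere II, had 22.0% unique windows and was the only other centromeric member deep enough for the nascent test. It had 6.62 and 17.8 normalised nascent reads in TSA cells, against 12 and 6.02 in untreated cells. The groups overlapped, and the change of 0.24 ± 0.36 was not significant (limma adjusted p = 0.640). In the input both TSA cultures had 7 reads and both untreated cultures had 3, a change of 0.77 ± 0.48 (limma adjusted p = 0.302).

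SPNCRNA.234, near the right edge of centromere I, had 9 and 8 nascent reads in TSA cells, against 1 and 6 in untreated cells, too few for the nascent test. Its input pointed the other way, with 4 and 2 reads in TSA cells, against 10 and 3 in untreated cells (limma adjusted p = 0.310). SPNCRNA.370 of centromere II, whose windows were all unique, had 7 and 1 nascent reads in TSA cells, against 2 and 5 in untreated cells. SPNCRNA.369, also unique throughout, had a single read in the 8 libraries. SPNCRNA.231, SPNCRNA.233 and SPNCRNA.373 had at most 5 reads in any library.

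Summed over all 28 members, the nascent level was 1.05 and 1.89 normalised reads per kb in TSA cells, against 1.35 and 1.34 in untreated cells. The TSA replicates lay on either side of the untreated ones. The ratio of the group means was 1.09, and it was 0.780 without TSA replicate 2 and 1.46 on the total-read scale. Input levels were 1.38 and 1.30 per kb in TSA cells, against 0.973 and 0.795 in untreated cells, with no overlap. They come from sums of 34.8 and 32.8 normalised input reads in TSA cells, against 24.6 and 20.1 in untreated cells. SPNCRNA.232 held the largest part of these input reads in every library. Without the reads of SPNCRNA.232, given above, the remaining input sums of TSA and untreated cells overlapped. A rise of the other centromeric members is therefore not shown. Counting only unique windows, the 7 readable members held 21.5 and 37.6 normalised nascent reads per 1000 windows in TSA cells, against 24.1 and 26.3 in untreated cells. Flank ncRNA genes held 35.9 and 37.3 in TSA cells, against 52.8 and 43.4 in untreated cells, and flank genes 212 and 227, against 349 and 272.

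In nascent RNA, the share of members called after TSA was near or below that of all features. On the spike-in scale 212 members were tested, and 1 rose and 12 fell at an adjusted p below 0.05 and a 2-fold change. These counts are 0.472% and 5.66% of the tested members, beside 2.10% that rose and 6.31% that fell among all 8052 features tested. Both TSA replicates lay below both untreated ones in 136 members (64.2%, and 58.0% of all features tested) and above them in 9 (4.25%, and 8.05% of all). The median change was -0.42 both for the members and for all features. With the tables scaled to total reads, the median of all 8062 tested features was 0.03 and that of the members 0.04, so that changes are best read against the median of their own scale. On that scale 4 of 213 members rose (1.88%, background 4.45%) and 3 fell (1.41%, background 0.843%).

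The counts of nascent calls rested on single libraries. The number of falls changed strongly, in either direction, when 1 library was left out. The share of all features called in those runs is not given here, so they do not set the members apart from other features. The falls that met the threshold under both scalings were XUT1508, novelncTU_76 and novelncTU_397. The other 9 falls were called on the spike-in scale only.

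The median nascent change differed between the flanks of the 3 centromeres. It was -0.33 (4 falls of 75 tested, 5.33%) beside centromere I, -0.42 (5 falls of 71, 7.04%) beside centromere II, and -0.57 (1 rise and 3 falls of 64, 1.56% and 4.69%) beside centromere III, against the 2.10% and 6.31% of all features. By type, flank genes had a median of -0.49 (133 tested, 8 fell, 6.02%) and the remaining genes of the series -0.49 (4881 tested, 277 fell, 5.68%). Flank ncRNA genes had -0.23 (36 tested) against -0.28 in the rest, flank XUTs -0.36 (30 tested) against -0.13, and flank nc-TUs -0.18 (11 tested) against -0.39. Of the flank nc-TUs 3 fell (27.3%, novelncTU_397 and the neighbours novelncTU_75 and novelncTU_76), against 47 of 330 in the rest (14.2%). No test of these differences was made.

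The members closest to the centromeres had higher changes than those farther out, a difference that was not tested. The 11 tested members that ended within 5 kb of an edge had a median of 0.16, which was 0.58 above that of all features, and 9 of the 11 lay above it. The medians were -0.52 at 5 to 10 kb (19 tested), -0.40 at 10 to 25 kb (66 tested) and -0.42 at 25 to 50 kb (114 tested). The same offset within 5 kb was 0.46 on the total-read scale and lay between 0.33 and 0.72 when single libraries were left out. By centromere the median within 5 kb was 0.03 at I (6 tested), 0.48 at II (3 tested) and -0.25 at III (2 tested). None of the 11 was called on the spike-in scale. SPNCRNA.936 and XUT1505, both opposite rad50, overlap on 1 strand and share nearly all of their reads, so the 11 are not independent.

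**Figure D2:**
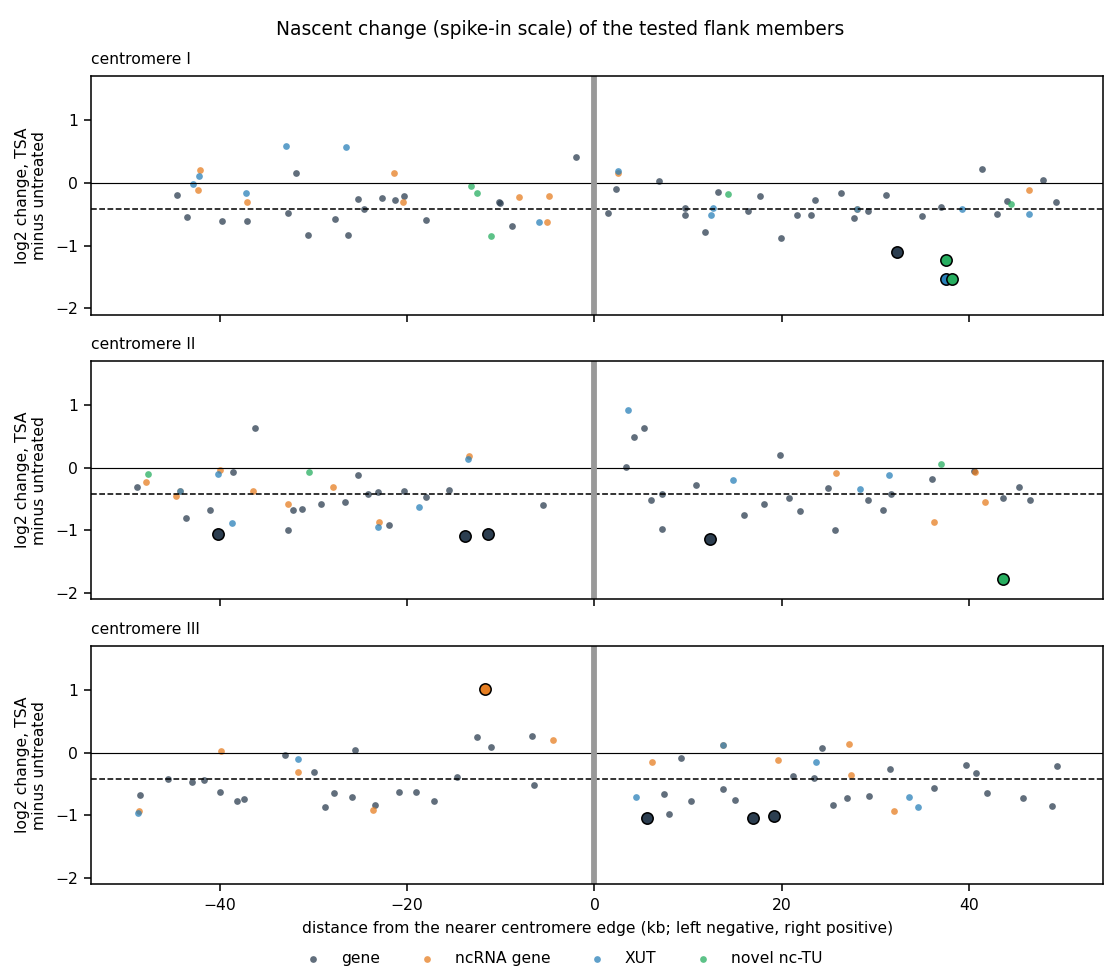
Each point is a tested flank member, placed by its distance in kb from the nearer edge of its centromere (left negative, right positive) and by its nascent log2 change, TSA minus untreated, on the spike-in scale. Colours give the type, large outlined points are called members, the dashed line is the median of all tested features (-0.42), and the grey bar stands for the centromere, whose width is not drawn. Points nearest the bar at centromeres I and II lie mostly above the dashed line.

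The protein-coding genes next to the edges were per1 and emc5 at centromere I, rpb1 and yox1 at II, and chk1 and ppc1 at III. The amino acid permease gene per1, 1.96 kb from the left edge of centromere I, had 578 and 396 normalised nascent reads in TSA cells, against 460 and 279.5 in untreated cells. Its nascent change of 0.41 ± 0.29 was not significant (limma adjusted p = 0.304). Its input did not overlap, at 134 and 105 normalised reads in TSA cells against 70.1 and 55.6 in untreated cells, with a change of 0.91 ± 0.18 (limma adjusted p = 0.00333) that missed the 2-fold size. On the right, emc5, whose product belongs to a membrane complex of the endoplasmic reticulum, had input values of 31.8 and 37.2 in TSA cells against 19.5 and 19.2 in untreated cells (0.79 ± 0.24, limma adjusted p = 0.0391). Its nascent change was -0.48 ± 0.32. Both neighbours of centromere I thus had non-overlapping, higher input values after TSA, below the 2-fold size, while neither was called in nascent RNA. Such upward separation in the input was common, at 28.7% of all 7245 features tested.

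At centromere II the left neighbour was rpb1, which encodes the largest subunit of Pol II itself. It was among the deepest members, with 2539 and 2296 nascent reads in TSA cells and 2673 and 4105 in untreated cells, and its change of -0.60 ± 0.30 was not significant (limma adjusted p = 0.141). At centromere III, chk1, the DNA damage checkpoint kinase gene, changed by -0.52 ± 0.31 (limma adjusted p = 0.218). On the other side ppc1, which acts in the synthesis of coenzyme A, fell to 100.5 and 128 normalised nascent reads in TSA cells, against 269 and 213 in untreated cells (-1.04 ± 0.31, limma adjusted p = 0.0125). The neighbours of centromere III therefore both had negative changes, beside a median of -0.42 for all features on this scale. Only the change of ppc1 passed the threshold.

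The right edge of centromere II held the group of members with the highest offsets. The MBF corepressor gene yox1, 3.41 kb from the edge, changed by 0.01 ± 0.33 on the spike-in scale. XUT0267 (chrII:1648295-1648792, minus strand) lies wholly within yox1 on the opposite strand and had 49.1 and 72.7 normalised nascent reads in TSA cells, against 29.0 and 29.0 in untreated cells. Its change was 0.91 ± 0.34 (limma adjusted p = 0.0499, under 2-fold), and on the total-read scale it rose by 1.33 ± 0.26 (limma adjusted p = 1.48e-05). The genes rec6 and dpm2 also overlap yox1 on the opposite strand, rec6 with all of its 724 nt and dpm2 over 158 nt. A share of reads from the opposite strand was not tested for these members. The meiotic recombination gene rec6 changed by 0.48 ± 0.35. The product of dpm2 is a regulatory subunit of dolichol-phosphate mannosyltransferase. The values of dpm2 were 67.9 and 67.1 normalised nascent reads in TSA cells, against 42 and 40.5 in untreated cells. Its change was 0.64 ± 0.34 on the spike-in scale (limma adjusted p = 0.166) and 1.07 ± 0.26 on the total-read scale (limma adjusted p = 0.000795), where it was called.

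The only rise on the spike-in scale was ubc11-antisense-1 (SPNCRNA.1171, chrIII:1058376-1059225, plus strand), 11.7 kb left of centromere III. It had 27.6 and 48.5 normalised nascent reads in TSA cells, against 14 and 16.4 in untreated cells, with no overlap. The change was 1.02 ± 0.35 (limma adjusted p = 0.0329) and 1.38 ± 0.27 on the total-read scale (limma adjusted p = 1.63e-05). The call was lost without TSA replicate 1, TSA replicate 2 or untreated replicate 1, and with the pseudocount multiplied by 4, where the change was 0.64. It overlaps ubc11, a gene for a ubiquitin-conjugating enzyme of the cell cycle, over 740 nt of the opposite strand, and ubc11 itself changed by 0.09 ± 0.31 in nascent RNA. Its input held 4 and 2 reads in TSA cells, against 3 and 0 in untreated cells.

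XUT0686, opposite the polarity gene bud6, and meu25, a gene named for its upregulation in meiosis, completed the 5 largest nascent rises at 0.58 ± 0.35 and 0.64 ± 0.35. Neither passed on the spike-in scale, while meu25 did on the total-read scale (1.01 ± 0.27, limma adjusted p = 0.00409).

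The falls were led by antisense transcripts. The largest was novelncTU_397 (chrII:1688354-1689469, minus strand), 43.6 kb right of centromere II, with 12.7 and 34.8 normalised nascent reads in TSA cells, against 122 and 62.9 in untreated cells. The groups did not overlap, and the change was -1.77 ± 0.34 (limma adjusted p = 3.43e-05) and -1.36 ± 0.26 on the total-read scale (limma adjusted p = 8.13e-06). It lies wholly opposite fba1, the glycolytic aldolase gene, which had 26218 and 19833 nascent reads in TSA cells and 24254 and 33873 in untreated cells. fba1 itself changed by -0.48 ± 0.39 (limma adjusted p = 0.378). How reads were assigned to strands is not stated for these tables, and a share of reads from the far deeper opposite gene was not tested.

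**Figure D3:**
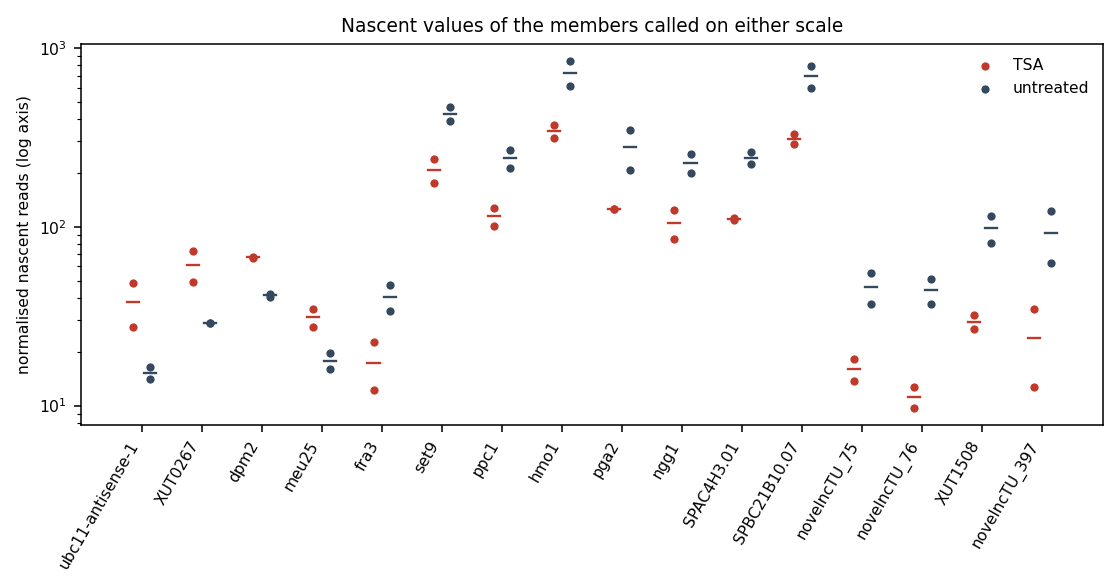
Normalised nascent reads (spike-in scale, log axis) of the 16 members that were called on the spike-in or the total-read scale, ordered by their change on the spike-in scale. Points are the 2 replicates and bars their mean, TSA in red left of untreated in dark. In none of the 16 do the groups overlap, but they were picked by these same values, so the separation adds no support. Among all features tested, both TSA values lay below both untreated ones in 58.0% and above them in 8.05%.

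The 8 protein-coding genes that fell did so by changes of -1.13 to -1.01 on the spike-in scale. SPBC21B10.07, annotated as a glycosyl hydrolase, had 291.5 and 329 normalised nascent reads in TSA cells, against 787 and 598 in untreated cells (-1.13 ± 0.29, limma adjusted p = 0.00348). A pair of chromatin genes next to each other, 11.4 to 13.8 kb left of centromere II, fell together. ngg1 encodes a subunit of the histone acetyltransferase complex SAGA and had 85.6 and 124 in TSA cells, against 254 and 201 in untreated cells (-1.09 ± 0.31). hmo1 encodes an HMG-box factor linked to RNA polymerase I transcription and had 315 and 369 in TSA cells, against 842 and 609.9 in untreated cells (-1.06 ± 0.29). Right of centromere III, set9, which encodes the histone H4 lysine 20 methyltransferase, had 174 and 238 in TSA cells, against 466 and 388 in untreated cells (-1.04 ± 0.30). The remaining falls were pga2 (-1.06), fra3 (-1.01), which overlaps set9 on the opposite strand over 443 nt, ppc1 and SPAC4H3.01. None of the 8 was called on the total-read scale, where their changes lay between -0.66 and -0.57.

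Right of centromere I, a stretch of SPAC4H3 genes held members called in nascent RNA, in input RNA or in both. Other SPAC4H3 genes of the stretch were not called, and the members below were picked by their calls. XUT1508 (chrI:3826890-3828592, plus strand) lies within SPAC4H3.03c (chrI:3826456-3829377, minus strand), a gene for a glucan 1,4-alpha-glucosidase, on the opposite strand, and covers novelncTU_75 and novelncTU_76, with which it shares reads. XUT1508 had 32.0 and 26.7 normalised nascent reads in TSA cells, against 115 and 81.0 in untreated cells, a change of -1.54 ± 0.34 (limma adjusted p = 0.000415). Both nc-TUs fell as well, by 1.23 ± 0.35 and 1.53 ± 0.35 on the log2 scale. In the input XUT1508 was also lower, with 1 and 1 reads in TSA cells, against 9 and 6 in untreated cells. The input ratio of TSA over untreated was 0.116 (95% counting interval 0.0129 to 0.498). For novelncTU_76 the ratio was 0.248, with an interval of 0.0252 to 1.30 that includes 1. For novelncTU_75, which had 0 input reads in TSA cells, the interval was 0 to 0.509.

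The sense gene SPAC4H3.03c had the largest input rise of all members. Its input held 48.9 and 42.3 normalised reads in TSA cells, against 10.1 and 10.9 in untreated cells, a change of 2.00 ± 0.26 (limma adjusted p = 6.92e-05). Its nascent RNA overlapped between the groups, with 293 and 449 normalised reads in TSA cells, against 592 and 380 in untreated cells (-0.38 ± 0.29, limma adjusted p = 0.337). The change of its IP to input ratio was -1.90 ± 0.42, with a limma adjusted p of 0.400. The next gene, SPAC4H3.04c, of unknown function, also rose in the input, with 9 and 16 reads in TSA cells, against 4 and 1 in untreated cells (1.76 ± 0.53, limma adjusted p = 0.0369). SPAC4H3.01, which encodes a J-domain chaperone, fell in both kinds of RNA, by 1.10 ± 0.31 in nascent and 1.02 ± 0.20 in input RNA on the log2 scale.

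**Figure D4:**
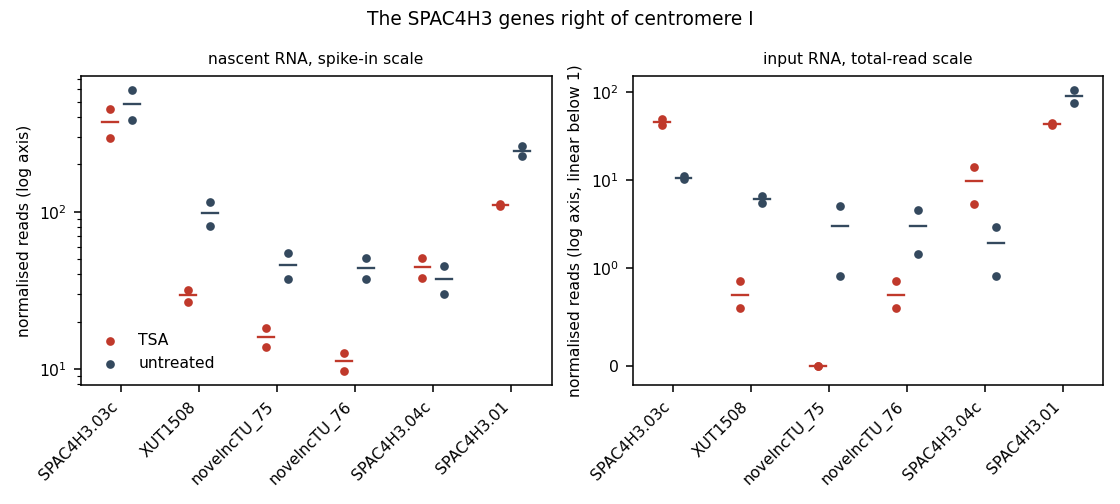
Normalised nascent reads (left, spike-in scale, log axis) and input reads (right, total-read scale, log axis that is linear below 1) of 6 members right of centromere I. Points are the 2 replicates and bars their mean, TSA in red left of untreated in dark. Both TSA points of SPAC4H3.03c lie above both untreated ones in the input, while its nascent points overlap between the groups. All TSA points of the 3 transcripts on its opposite strand lie below the untreated ones in both panels. XUT1508 covers the nc-TUs and shares their reads, so the 3 are not separate results. Among all features tested, 58.0% in nascent and 29.1% in input RNA had both TSA values below both untreated ones.

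For input RNA 190 members were tested, and 4 rose (2.11%, background 4.53%) and 3 fell (1.58%, background 1.56%). The median change was -0.03 for the members and 0.00 for all 7245 features tested. Both TSA replicates lay above both untreated ones in 53 members (27.9%, and 28.7% of all) and below them in 58 (30.5%, and 29.1% of all). Besides SPAC4H3.03c and SPAC4H3.04c, the rises were SPNCRNA.935 and got1. SPNCRNA.935, an ncRNA gene 4.85 kb left of centromere I that runs into per1, had 16 and 15 input reads in TSA cells, against 7 and 2 in untreated cells (1.501 ± 0.448, limma adjusted p = 0.0368), and its nascent change was -0.21 ± 0.33. The Golgi transport gene got1 had 33.6 and 28.5 normalised input reads in TSA cells, against 13 and 13.7 in untreated cells (1.15 ± 0.26, limma adjusted p = 0.00879).

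The input falls were SPAC4H3.01, XUT1508 and ect1. ect1 makes an activated ethanolamine for phospholipid synthesis and had 18.3 and 8.64 normalised input reads in TSA cells, against 28.9 and 28.3 in untreated cells (-1.11 ± 0.32, limma adjusted p = 0.0303). In DESeq2 only SPAC4H3.03c kept its input call. Within 5 kb of the edges the input median was 0.56 over 9 tested members, against 0.02 at 5 to 10 kb and -0.07 in the bins at 10 to 25 kb and 25 to 50 kb. Of the 9, 6 lay at centromere I, with a median of 0.68, while the 2 at centromere II had 0.15 and the 1 at centromere III had 0.22. Relative to all features the offset was 0.56, and it was 0.28 without TSA replicate 1. Differences in the number of cells and in RNA per cell cannot be told apart in these bulk libraries.

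The ratio of nascent to input RNA was tested over the 4 cultures for 188 members. In limma no member was called between TSA and untreated cells, and none of all 7183 features tested was (background 0%). The lack of calls therefore does not show that the ratios of the members stayed the same. In limma 20 members and 692 of all features had an unadjusted p below 0.05. With 1 pseudocount for IP and input, 1 member fell, and the share of all features in that run is not given here. In TSA cells 180 of the 188 members were at least 2-fold higher in IP than in input (95.7%, background 95.7%), and in untreated cells 183 were (97.3%, background 95.4%). The median log2 ratio was 2.71 in TSA cells and 2.76 in untreated cells. The pseudocounts were 6.58 for IP and 1.18 for input, which alone put a feature without reads above 2-fold. Each library was also scaled to its own total. The ratios therefore compare features with each other and do not measure an excess of IP over input. SPNCRNA.232 stood low among the members, at -0.05 ± 0.30 in TSA cells and 0.87 ± 0.30 in untreated cells. SPNCRNA.359 reached 1.79 in TSA cells and 2.02 in untreated cells. Lower in IP than in input were 0 members in TSA cells in limma (background 1.46%) and 2 in untreated cells (background 1.61%), the flank members XUT0681 at -1.33 and XUT1069 at -1.29.

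Levels of the flank genes were close to those of the other genes. The median nascent level was 101 and 104 normalised reads per kb in TSA cells for flank genes, against 161 and 120.3 in untreated cells. For the remaining genes of the series it was 88.8 and 97.0 in TSA cells, against 152 and 116 in untreated cells. The 5 genes within 5 kb of an edge had medians of 63.7 and 84.4 in TSA cells, against 83.1 and 74.2 in untreated cells. Those at 10 to 25 kb had 108 and 127 in TSA cells, against 176 and 150 in untreated cells.

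Genes for proteins of the centromere were called at shares that can be set beside those of all features, 2.10% up and 6.31% down in nascent RNA on the spike-in scale and 4.53% up and 1.56% down in the input. Of 23 genes for heterochromatin and RNA interference factors, all tested, none was called in nascent RNA on either scale in limma, with a median of -0.49 on the spike-in scale. The change of swi6 was -0.91 ± 0.30 on that scale (limma adjusted p = 0.0260), under 2-fold. In the input only swi6, which encodes the heterochromatin protein that binds methylated histone H3, fell (-1.02 ± 0.24, limma adjusted p = 0.0101). Of 13 genes for centromere chromatin and the kinetochore, cnp3, the CENP-C gene, fell in nascent RNA on the spike-in scale (-1.11 ± 0.30, limma adjusted p = 0.00644), and it was not called on the total-read scale (-0.64 ± 0.26, limma adjusted p = 0.0965). In the input cnp3 changed by -0.90 ± 0.20 (limma adjusted p = 0.00827), under 2-fold. The gene of the centromeric histone variant, cnp1, rose in the input (1.21 ± 0.29, limma adjusted p = 0.0111). Its nascent change on the spike-in scale was -0.11 ± 0.32 (limma adjusted p = 0.821).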

How the data were processed

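Nascent and input RNA of 4 cultures were measured in 8 libraries. Per the methods and labels, the authors trimmed reads with cutadapt, mapped them with Bowtie at up to 1 mismatch and kept unique reads. The deposited columns hold reads per feature times 1 factor per library. Where the factor is 1 the deposited values are raw read counts, and elsewhere they are a signal in normalised reads, from which whole reads were recovered for 100% of values (tolerance 0.001 of a read). The authors scaled one table to S. cerevisiae ribosomal protein genes (IP only, the spike-in scale) and the other to total reads. How reads were assigned to strands, and which annotation was used, is not given in the sources used here. The authors' density columns and sums over replicates were not used. The methods name ASM294v2. Sequences and windows came from RefSeq's ASM294v3, in which all 28 centromeric members have the coordinates of the files.

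Features whose mean exceeded the pseudocount (10th percentile of non-zero values, which is 6 for nascent RNA on the spike-in scale) were tested on log2(value + pseudocount) with limma 3.58.1 over the whole table, with Benjamini-Hochberg adjustment. A change understates that of low features. A call needed an adjusted p under 0.05 and a 2-fold change. Alternatives used edgeR 4.0.16, DESeq2 1.42.0, other scalings, pseudocounts and filters, a replicate block and leaving out each library. The limma, edgeR (with TMM) and DESeq2 fits of the nascent and input changes were tested on simulated data. The fits of the IP to input ratio and the other alternatives were not. With 2 replicates per group, p-values rest on the spread pooled over features. Intervals and read limits cover counting error only, since no molecular identifiers were used.

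Named members were all 28 inside the centromeres, every called flank member, the gene nearest each edge, and the 5 largest nascent rises and falls. rad50, rec6, ubc11, bud6, fba1, XUT0681, XUT1069, SPNCRNA.936 and XUT1505 were named after their values were seen. Members and lists were chosen with earlier results of these data known.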

Additional observations from a re-analysis of the deposited data

Results flagged for a closer look

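Beside the 4 types described, 28 tRNA genes overlapped a centromere, and 18 of them had 0 reads in all 8 libraries. These genes were part of the table of all features but not of the members compared, and 3 of them had more than 3 reads in every library. Whether the IP reads of these tRNA genes are nascent RNA was not tested. SPCTRNAVAL.10, at centromere III, had 8926 reads in all, most of them in the inputs. It had 190 and 46 IP reads in TSA cells, against 16 and 119 in untreated cells. Its input reads were 2716 and 1903 in TSA cells, against 2799 and 1137 in untreated cells. SPCTRNAGLU.10, also at centromere III, had 2174 reads in all. SPBTRNATYR.03, at the right end of centromere II, had 491 reads in all. Its IP reads were 131 and 54 in TSA cells, against 42 and 163 in untreated cells.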

How the results depend on the processing

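The member medians, taken relative to all features, moved by less than the spread between replicates in nascent and input RNA under every alternative run. The offset within 5 kb of the edges moved by more in some runs. In nascent RNA it went from 0.58 (spread 0.18) to 0.39 without the filter and 0.33 without untreated replicate 2. In the input it went from 0.56 (spread 0.24) to 0.30 with the pseudocount multiplied by 4 and 0.28 without TSA replicate 1. Of the 12 nascent falls called, 3 remained under total-read scaling, median-ratio scaling, edgeR with TMM and DESeq2 (3 falls each). The pseudocount multiplied by 4 gave 4 falls, and edgeR with spike-in scaling gave 19. The 1 rise became 4 under total-read scaling, 3 under median-ratio scaling, edgeR with TMM and DESeq2, and 0 with the larger pseudocount. Leaving out single libraries gave 0 to 38 falls and 0 to 1 rise. For input, DESeq2 called 1 rise and 0 falls and the larger pseudocount 2 rises and 0 falls, and leaving out single libraries gave 2 to 6 rises and 1 to 5 falls. Without TSA replicate 1 there were 2 input rises and 5 falls, and without untreated replicate 2 there was 1 fall.

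Under 1 pseudocount for IP and input, 1 member fell in the IP to input ratio, and the offset of the untreated IP over input median from all features was -0.00285. Without single libraries that offset lay between -0.0484 and 0.0132 in untreated cells, and between -0.0356 and 0.0968 in TSA cells. The ratio of summed nascent signal inside the centromeres, TSA over untreated, lay between 0.780 and 1.40 without single libraries, and was 1.46 under total-read scaling and 1.41 without the member that held the most reads.

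With the replicate number as a block, 0 rises and 4 falls were called in nascent RNA, and no count changed in input RNA or in the ratio. The labels do not pair TSA with untreated cultures, and deviations of same-numbered libraries correlated at -0.205 in nascent and 0.0181 in input RNA. The 28 centromeric members held at most 62 reads together in a nascent library, and only 2 of them could be tested there.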
